A study of Arabidopsis thaliana with 8 samples.

Results

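Seedlings of the Arabidopsis thaliana hyl1 mutant were compared with wild type by where the RNA fragments left behind by cut MIRNA precursors begin. The comparison rested on 4 of the 8 libraries of the series, 2 of wild type (Col) and 2 of homozygous hyl1 (Hyl1 -/-), chosen by genotype alone. The labels do not name the hyl1 allele. All plants were 10 days old, were grown in continuous light, and gave total RNA from a tissue labelled as whole seedling bud. RNA ends were ligated, reverse-transcribed with precursor-specific primers and amplified, an assay known as SPARE (Specific Parallel Analysis of RNA Ends). The other 4 libraries, from fiery1 and se plants, entered the fits across precursors to estimate the spread. The libraries were primed on MIRNA precursors, so the HYL1 transcript and tissue markers are not analysed here and the labels were taken as given.

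HYL1 is a double-stranded RNA-binding protein that works with the nuclease DCL1 and the zinc-finger protein SERRATE to place cuts accurately on the hairpins of primary miRNA transcripts. Plants cut some hairpins from the base toward the loop and others from the loop toward the base, in a pair of cuts that releases the miRNA duplex. Fragments that still carry the 3′ part of the precursor begin at one of these cuts. For the duplex strand on the 3′ arm, a fragment that starts at the first base beyond that strand has a base-proximal end here, and a fragment that starts with the strand has a loop-proximal end. Each was counted within 1 nt of the annotated position, and every other end was counted as elsewhere, so that class can hold other cuts, degradation ends and cuts displaced from the annotation.

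The hairpins on which the results turn are shown 5′ to 3′ from RefSeq TAIR10.1, with the annotated duplex strand of the 3′ arm in capitals. The first capital is the loop-proximal site and the first lower-case base after the capitals is the base-proximal site. MIR156a (AT2G25095, chromosome 2, 10676451 to 10676573, minus strand) and MIR156c (AT4G31877, chromosome 4, 15415418 to 15415521, minus strand) yield miR156, which represses SPL transcription factors and holds plants in the juvenile phase. MIR159b (AT1G18075, chromosome 1, 6220646 to 6220841, plus strand) yields miR159, a repressor of GAMYB-like MYB factors, and MIR162a (AT5G08185, chromosome 5, 2634905 to 2635044, minus strand) yields miR162, which targets DCL1 itself. MIR167a (AT3G22886, chromosome 3, 8108072 to 8108209, plus strand) yields miR167, a repressor of auxin response factors, and MIR171b (AT1G11735, chromosome 1, 3961348 to 3961464, minus strand) yields miR171, which represses GRAS factors of the HAIRY MERISTEM group. MIR779 (AT2G22496, chromosome 2, 9560761 to 9560923, plus strand) carries 2 annotated miRNAs on its 3′ arm, of which miR779.2, the strand nearer the loop, set its sites. MIR825 (AT2G26211, chromosome 2, 11159660 to 11159845, plus strand) is the last. The names miR825 and miR779.2 give no arm, so their arm was read from predicted folding of the hairpin.
MIR156a: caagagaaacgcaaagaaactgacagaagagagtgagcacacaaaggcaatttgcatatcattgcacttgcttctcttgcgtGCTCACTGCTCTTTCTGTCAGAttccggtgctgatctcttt
MIR156c: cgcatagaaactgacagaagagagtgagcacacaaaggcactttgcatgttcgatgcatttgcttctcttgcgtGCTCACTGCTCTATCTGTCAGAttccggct
MIR159b: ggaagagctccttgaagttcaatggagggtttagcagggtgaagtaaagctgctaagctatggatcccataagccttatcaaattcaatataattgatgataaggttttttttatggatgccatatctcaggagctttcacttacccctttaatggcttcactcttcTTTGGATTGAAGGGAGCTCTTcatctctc
MIR162a: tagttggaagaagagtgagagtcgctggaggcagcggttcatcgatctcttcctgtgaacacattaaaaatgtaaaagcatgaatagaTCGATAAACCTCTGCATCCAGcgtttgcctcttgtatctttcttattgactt
MIR167a: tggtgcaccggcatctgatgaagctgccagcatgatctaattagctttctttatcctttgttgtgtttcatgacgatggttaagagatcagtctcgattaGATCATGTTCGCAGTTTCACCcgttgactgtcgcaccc
MIR171b: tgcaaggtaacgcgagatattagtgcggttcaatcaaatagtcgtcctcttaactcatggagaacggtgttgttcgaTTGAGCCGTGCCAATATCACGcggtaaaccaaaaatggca
MIR779: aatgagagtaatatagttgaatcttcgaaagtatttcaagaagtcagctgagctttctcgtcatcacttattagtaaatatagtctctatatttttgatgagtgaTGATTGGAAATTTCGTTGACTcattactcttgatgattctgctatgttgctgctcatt
MIR825: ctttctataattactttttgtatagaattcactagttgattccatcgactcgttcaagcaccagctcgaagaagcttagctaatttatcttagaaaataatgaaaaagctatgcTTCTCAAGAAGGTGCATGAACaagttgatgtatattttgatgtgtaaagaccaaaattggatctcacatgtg

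The files hold counts of identical tags of 18 to 51 nt. Tags of 26 nt or more, which are longer than a mature miRNA, numbered 56554 and 121429 in wild type 1 and 2 and 45108 and 25753 in hyl1 1 and 2. Tags under that length, set aside here, made up 29.5% and 4.05% of wild-type counts and 1.19% and 28.2% of hyl1 counts, so wild type 1 and hyl1 2 stood apart from the other libraries of their own genotypes. Hyl1 replicate 1 has a later sample number and another source label than hyl1 replicate 2. The longer tags came from 70 precursors, of which 43 were seen in both wild-type libraries, 44 in both hyl1 libraries and 37 in all 4. The 20 precursors with at least 20 counts in each of the 4 libraries held 91.8% of the counts. Where ends lie was measured in these unless stated. Sampling gave the share of a precursor a 95% Wilson interval with a median width of 2.06 points, and the widest, of MIR162a in hyl1 1, spanned 13.8 points. Intervals cover counting error only, because PCR copies carry no molecular identifiers. The labels do not say that replicates came from separate plant pools, so p-values measure the spread between these libraries, which may be technical.

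In hyl1 fewer ends lay at the loop-proximal site and more lay at neither site. Library shares were taken over all precursors with an annotated 3′ arm, whatever their counts. Loop-proximal ends were 31.9% and 27.6% of the counts in wild type 1 and 2 and 12.3% and 15.1% in hyl1 1 and 2. That is 29.7% ± 3.01 (SD, n = 2) against 13.7% ± 1.94, and the genotypes did not overlap. Ends elsewhere were 25.1% and 26.6% in wild type and 41.8% and 44.3% in hyl1, or 25.9% ± 1.06 (SD, n = 2) against 43.0% ± 1.78, also without overlap. Each of these 2 differences had an exact two-sided permutation p of 0.33, the smallest possible with 2 libraries against 2. Base-proximal ends were 43.0% and 45.8% in wild type and 45.9% and 40.6% in hyl1, and these ranges overlapped (exact permutation p = 1). Without wild type 1 the loop-proximal and elsewhere differences were -13.9 and 16.4 points, and without hyl1 2 they were -17.4 and 15.9 points. Over tags of all lengths the difference in ends elsewhere was 12.5 points and the genotypes overlapped (exact permutation p = 0.667). In the 20 precursors alone, pooled loop-proximal ends were 33.0% and 28.4% in wild type and 13.4% and 16.1% in hyl1. Base-proximal ends there were 42.8% and 44.7% against 46.2% and 42.6% and overlapped. Their mean difference was 0.677 points, against -1.16 points over all precursors with an annotated 3′ arm.

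Whether base-side ends were fewer in hyl1 depended on how precursors were weighted. MIR159b alone held 30.7% and 27.5% of wild-type counts and 14.7% and 17.6% of hyl1 counts, and few of its ends lay at the base. Without it, base-proximal ends over all precursors with an annotated 3′ arm were 11.2 points lower in hyl1, and the genotypes no longer overlapped. The loop-proximal difference depended on MIR159b too, since 59.1% and 59.7% of its wild-type ends were loop-proximal. Leaving out MIR159b made the loop-proximal library difference much smaller and the difference in ends elsewhere larger. When each of the 20 precursors had equal weight, base-proximal ends were 54.1% and 51.5% in wild type and 43.5% and 42.6% in hyl1. On the same equal weighting loop-proximal ends were 20.1% and 24.7% against 11.4% and 10.7%.

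The ends that lay elsewhere in hyl1 were mostly upstream of the base-proximal site. With equal weight, ends inside the hairpin but before the loop-proximal site were 3.08% and 3.89% in wild type and 14.95% and 12.05% in hyl1. That region holds the 5′ arm, the loop and the part of the 3′ arm before the duplex strand, which were not separated. Ends inside the 3′ strand were 7.77% and 7.89% against 17.2% and 11.2%. Ends upstream of the annotated hairpin were 0.0150% and 1.22% against 4.29% and 4.99%. In these 3 regions both hyl1 libraries were above both wild-type libraries, with pooled counts as with equal weight. Ends after the base-proximal site overlapped between the genotypes, at 14.98% and 10.8% in wild type and 8.68% and 18.5% in hyl1.

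**Figure D1:**
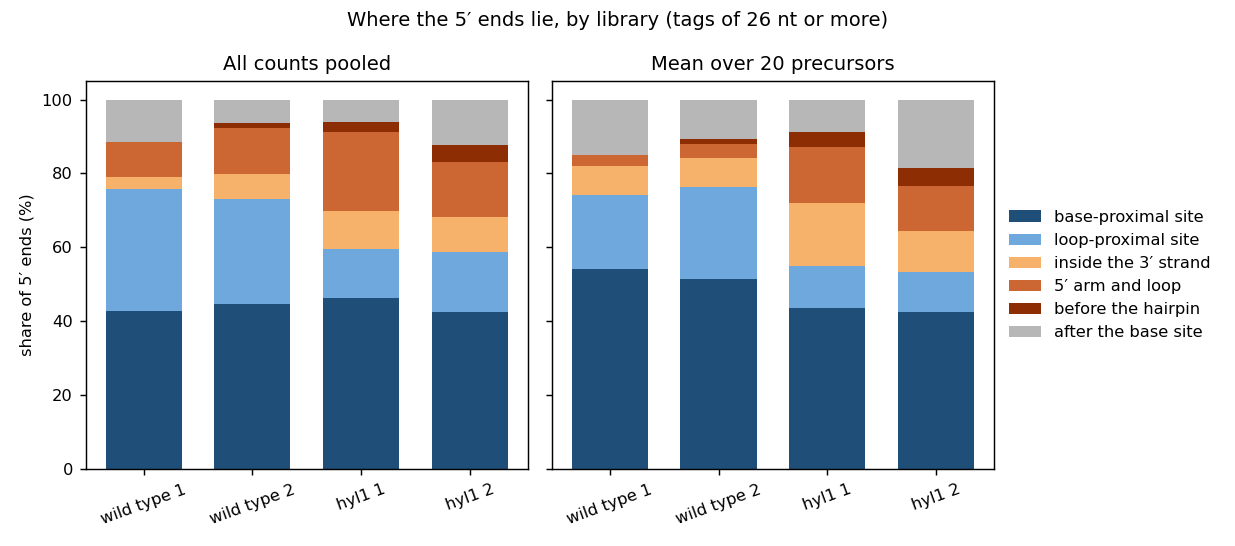
Share of 5′ ends in percent by region of the precursor in each library, as stacked bars, with all counts of the 20 precursors pooled on the left and the mean over the 20 precursors on the right. Loop-proximal segments are shorter in both hyl1 bars, at 11.4% and 10.7% with equal weight against 20.1% and 24.7%. The segments labelled 5′ arm and loop are longer, and they include the part of the 3′ arm before the duplex strand.

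Per precursor, limma on the log2 odds of each share with Benjamini-Hochberg adjustment called MIR156a and MIR825. The base-proximal share was called in 1 of 20 precursors (5%), the loop-proximal share in 1 of 20 (5%) and the share elsewhere in 2 of 20 (10%). Both hyl1 libraries lay below both wild-type libraries in the base-proximal share of 6 precursors (30%) and above in 2 (10%). For the loop-proximal share the counts were 6 below (30%) and 0 above (0%). The 10 precursors without a loop-proximal count could lie neither below nor above, which lowers the loop-proximal percentages. Ends elsewhere were above in 11 precursors (55%) and below in 2 (10%). Some of these rest on very few counts. MIR166a is among the 11, and among the 6 at the base, by 1 of 360 counts elsewhere in hyl1 2. MIR165a is among the 2 elsewhere and the 2 at the base with 2 and 3 counts elsewhere in hyl1. The median difference over the 20 precursors was -8.79 points at the base, 0 points at the loop, where 9 means were lower, 1 was higher and the other 10 precursors had no count in any of the 4 libraries, and 17.5 points elsewhere. At an unadjusted p under 0.05 there were 2 base-proximal, 5 loop-proximal and 7 elsewhere shares. Those 5 include MIR165a, one of the 10 without a loop-proximal count, whose log2 odds there follow depth.

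**Figure D2:**
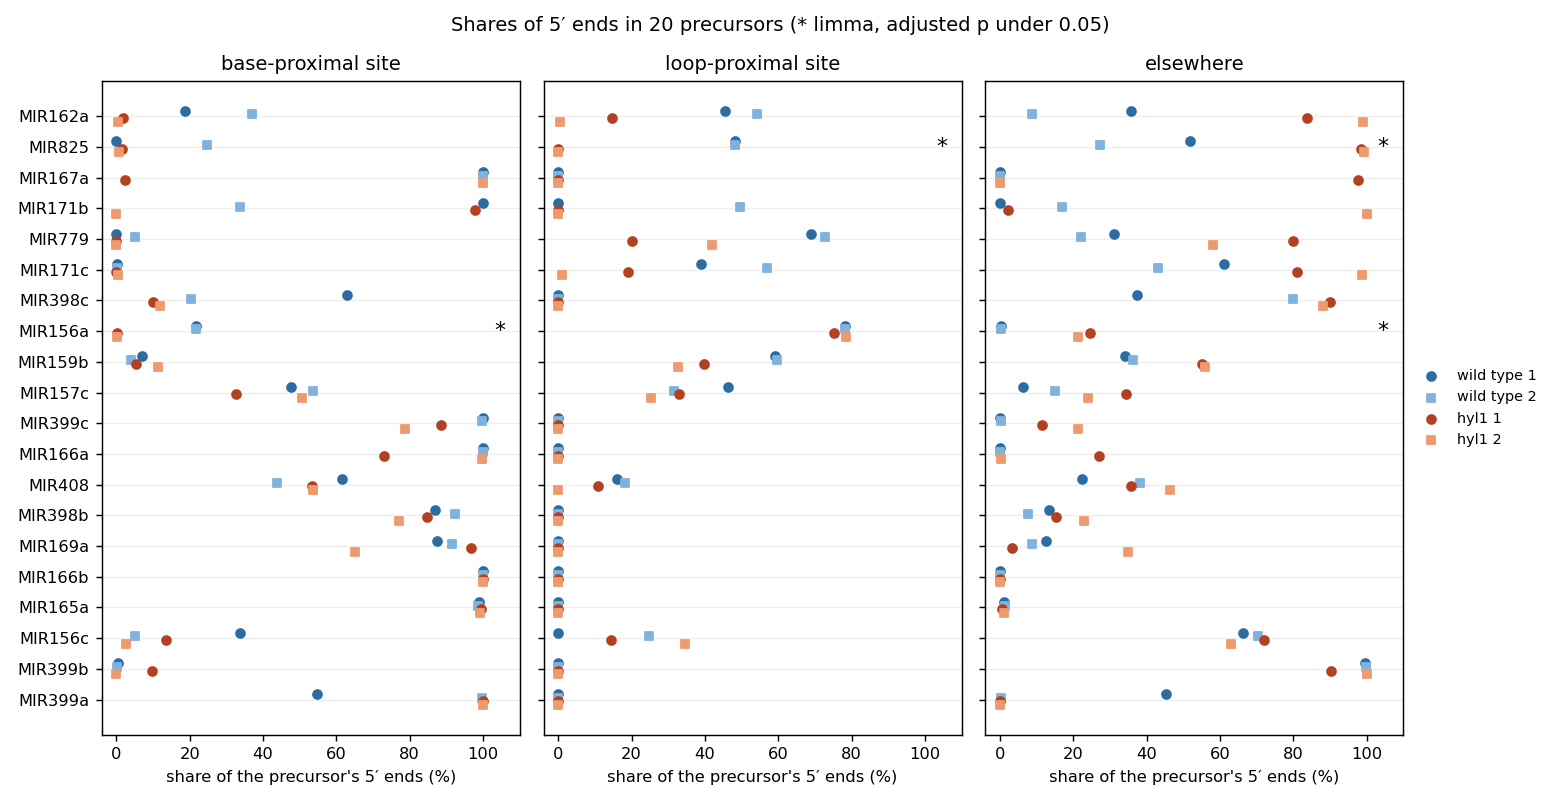
Share in percent of the 5′ ends of each of 20 precursors at the base-proximal site, the loop-proximal site and elsewhere, with 1 point for each of the 4 libraries and a star where limma gave an adjusted p under 0.05. Hyl1 points lie right of both wild-type points in the panel of ends elsewhere for 11 precursors, for MIR166a in hyl1 2 by 1 count.

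In MIR156a base-proximal ends fell to near 0. They were 21.7% of its counts in each wild-type library and 0.136% and 0.183% in hyl1 1 and 2, from 882, 664, 737 and 1640 counts. The difference of -21.5 points had an adjusted p of 0.00200 (limma), with both hyl1 libraries below both wild-type libraries. The loop-proximal share of MIR156a was 78.2% in each wild-type library and 75.3% and 78.6% in hyl1, so the hyl1 values lay on either side of wild type. Ends elsewhere went from 0.113% and 0.151% to 24.6% and 21.2% (limma, adjusted p = 0.0123). They fell at different places in the 2 hyl1 libraries. In hyl1 1 the larger ones began upstream of the hairpin, at chromosome 2, 10676646 and 10676628, with 4.75% and 10.2% of the counts, and 54 nt downstream of the base-proximal site, with 9.36%. In hyl1 2 they began upstream of the hairpin at 10676610, with 11.52%, and 3 nt upstream of the base-proximal site, with 9.70%. In the other mutants the annotated base-proximal position held 74.7% and 81.4% of MIR156a ends in fiery1 and 0.339% and 0.274% in se. With the site counted within 3 nt the base-proximal call was lost (-16.7 points, adjusted p = 0.272), since the end of hyl1 2 that lies 3 nt upstream then joins the site. The call of ends elsewhere was lost at the exact position (adjusted p = 0.257), without wild type 1 (0.0608) and without wild type 2 (0.0565).

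In MIR825 the loop-proximal end fell to 0 counts. Loop-proximal ends were 48.3% and 48.1% of its counts in wild type and 0% in both hyl1 libraries, a difference of -48.2 points (limma, adjusted p = 0.00545). With 64 and 140 counts in hyl1, a count of 0 allows shares of up to 4.69% and 2.14% by the floor of 3 counts, and the Wilson intervals reach 5.66% and 2.67%. Wild-type counts were 990 and 2571, and the se 2 library, which was too shallow for this precursor, is missing from its fit. Ends elsewhere were 51.7% and 27.3% in wild type and 98.4% and 99.3% in hyl1 (adjusted p = 0.0123). Their main position differed between the hyl1 libraries. In hyl1 1 an end in the 5′ arm, 99 nt upstream of the base-proximal site, held 92.2%, and in hyl1 2 an end 6 nt upstream of that site held 98.6%. The latter held 4.69% in hyl1 1, from 3 counts, 0.202% and 21.1% in wild type 1 and 2, and 33.7% and 29.4% in fiery1. With precursors and libraries admitted from 10 counts the loop-proximal call was lost (adjusted p = 0.0804), as was that of ends elsewhere (0.0533), which was also lost without wild type 1 (0.0608) and without wild type 2 (0.0572). The tags that begin at these 3 ends are shown with the first base, the 5′ end, in capitals.
MIR825 loop-proximal, wild type, chromosome 2, 11159774: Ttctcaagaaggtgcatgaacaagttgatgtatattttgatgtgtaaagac
MIR825 hyl1 1, chromosome 2, 11159696: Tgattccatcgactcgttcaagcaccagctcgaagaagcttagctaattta
MIR825 hyl1 2, chromosome 2, 11159789: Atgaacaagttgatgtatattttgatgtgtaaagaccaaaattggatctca

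MIR162a had the largest mean difference in ends elsewhere, which did not pass the test. They were 35.8% and 8.77% in wild type and 83.6% and 99.0% in hyl1 (limma, adjusted p = 0.0528). Loop-proximal ends were 45.6% and 54.2% in wild type against 14.5% and 0.503% in hyl1 (adjusted p = 0.0750), and base-proximal ends were 18.6% and 37.0% against 1.82% and 0.503% (adjusted p = 0.328). In each of these 3 shares the wild-type and hyl1 libraries were apart. Tag length changed the sizes: over all tags the differences were 14.6 points elsewhere (adjusted p = 0.354), -8.01 at the loop and -6.57 at the base, against 69.0, -42.4 and -26.6 points in tags of 26 nt or more. With sites counted within 3 nt, the elsewhere and base-proximal differences passed the test, at 86.8 and -44.4 points (adjusted p = 0.0239 and 0.0157). An end 16 nt upstream of the base-proximal site, within the miR162a strand, held 82.7% of the 110 counts of hyl1 1. In hyl1 2, with 199 counts, an end 48 nt upstream held 64.8% and an end 37 nt downstream held 33.7%. Wild-type, fiery1 and se libraries had no count at these 3 positions. The upstream ends give the following tags.
MIR162a hyl1 1, chromosome 5, 2634951: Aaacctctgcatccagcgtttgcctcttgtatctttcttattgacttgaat
MIR162a hyl1 2, chromosome 5, 2634983: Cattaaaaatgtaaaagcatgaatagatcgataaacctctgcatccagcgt

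MIR159b, the precursor with the most wild-type counts, is cut stepwise from the loop, so an upstream cut precedes the loop-proximal one. Its loop-proximal ends were 59.1% and 59.7% in wild type and 39.7% and 32.6% in hyl1, at -23.3 points (limma, adjusted p = 0.169). Ends elsewhere were 33.9% and 36.4% against 55.0% and 56.0% (adjusted p = 0.116). Both measures separated the genotypes. The main upstream end, 50 nt before the base-proximal site, held 19.9% and 23.7% in wild type and 24.6% and 11.9% in hyl1, so it overlapped. Ends 57 nt upstream were 0.184% and 1.14% in wild type and 6.67% and 6.49% in hyl1, and ends 56 nt upstream were 0% and 0.545% against 3.73% and 9.29%. Both of these neighbouring ends were higher in each hyl1 library than in each wild-type library. The tag from 56 nt upstream is shown together with the tag from 24 nt upstream, which had no count in wild type and 1.19% and 2.56% in hyl1.
MIR159b at 56 nt, chromosome 1, 6220778: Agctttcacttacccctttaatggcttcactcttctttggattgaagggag
MIR159b at 24 nt, chromosome 1, 6220810: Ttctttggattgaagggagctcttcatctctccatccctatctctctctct

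MIR171c and MIR408 also had fewer loop-proximal ends in both hyl1 libraries. In MIR171c they were 39.0% and 56.9% in wild type and 19.1% and 0.917% in hyl1 (limma, adjusted p = 0.109), while ends elsewhere were 61.0% and 43.0% against 80.9% and 98.6%. In MIR408, whose miRNA represses copper proteins such as laccases and plantacyanin, they were 16.1% and 18.1% against 10.9% and 0% (adjusted p = 0.231). A count of 0 among the 2467 counts of MIR408 in hyl1 2 allows a share of up to 0.122% by the floor of 3 counts. All of these MIR408 ends lay 1 nt after the annotated loop-proximal position, so at the exact position the share was 0% in each library and the difference was 0. The call depended on which hyl1 library was used: for the loop-proximal differences of MIR171c, MIR408 and MIR162a limma gave adjusted p-values of 0.00562, 0.000667 and 0.00178 without hyl1 1, and 0.273, 0.567 and 0.112 without hyl1 2. Each of these compares a single hyl1 library, assumed to vary like the others.

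MIR157c, of the same SPL-targeting group as MIR156a, overlapped in base-proximal ends, at 47.5% and 53.6% in wild type and 32.6% and 50.7% in hyl1. Its ends elsewhere did not overlap, at 6.13% and 14.96% against 34.4% and 24.01% (limma, adjusted p = 0.116). An end 19 nt upstream of the base-proximal site accounted for part of them, with 283 and 895 counts in wild type (6.03% and 10.9%) and 762 and 410 of 4368 and 3153 counts in hyl1. In MIR156c the largest difference was downstream of the hairpin. An end 80 nt after the base-proximal site held 66.0% and 63.3% of the wild-type counts and 0.287% and 0.316% of the hyl1 counts. Hyl1 1 had 33.4% of its ends 58 nt upstream and 30.3% inside the 3′ strand, 19 nt upstream, and hyl1 2 had 52.2% of its ends 50 nt upstream. Wild type had no count at these 3 positions. All of these ends count as elsewhere, so that share overlapped between the genotypes, at 66.2% and 70.3% in wild type and 72.0% and 63.0% in hyl1. The tags are shown for the wild-type end and the 2 ends in the loop region.
MIR156c wild type at 80 nt downstream, chromosome 4, 15415345: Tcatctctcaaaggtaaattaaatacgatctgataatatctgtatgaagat
MIR156c hyl1 1, chromosome 4, 15415483: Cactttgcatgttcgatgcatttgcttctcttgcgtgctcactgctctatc
MIR156c hyl1 2, chromosome 4, 15415475: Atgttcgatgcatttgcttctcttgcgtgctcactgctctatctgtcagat

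In most precursors of base-to-loop families the main end lay at the base in both genotypes. MIR165a and MIR166b, whose miRNAs repress HD-ZIP III transcription factors, had 98.6% or more of their ends there in each of the 4 libraries. MIR165a was 99.0% and 98.6% in wild type and 99.4% and 99.1% in hyl1, a non-overlap of 0.413 points that was far from the threshold (limma, adjusted p = 0.943). MIR166a, of the same family, had 100% in both wild-type libraries and 72.9% and 99.7% in hyl1, where 27.1% of the hyl1 1 ends lay 28 nt upstream, before the duplex strand (adjusted p = 0.328). MIR398b, whose miRNA represses copper/zinc superoxide dismutases, had 86.8% and 92.4% in wild type and 84.7% and 77.1% in hyl1 (adjusted p = 0.604).

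MIR398c and MIR399c had fewer base-proximal ends in both hyl1 libraries. In MIR398c they were 62.8% and 20.3% in wild type and 10.09% and 11.8% in hyl1 (limma, adjusted p = 0.328). An end 84 nt upstream held 35.2% and 29.8% in wild type and 53.3% and 24.9% in hyl1. An end 173 nt upstream, before the hairpin, held 0.0866% and 11.9% in wild type and 0% and 25.4% in hyl1, so the second library of each genotype carried it. MIR399c, whose miRNA represses the phosphate regulator PHO2, had 99.9% and 99.8% in wild type and 88.5% and 78.7% in hyl1 (adjusted p = 0.328). Its hyl1 1 library had 7.73% of ends 23 nt upstream and its hyl1 2 library had 20.2% at 2 nt upstream. The end at 2 nt made up most of the 21.3% of hyl1 2 ends away from the site. It lies just outside the window of 1 nt and would join the site within 3 nt, so the lower share of hyl1 2 depends on the window. In fiery1 that end held 11.1% and 10.7%. In MIR399a the order was reversed, with 54.9% and 99.8% in wild type and 100% in both hyl1 libraries, since wild type 1 had 45.1% of its ends 34 nt downstream (adjusted p = 0.328). MIR399b has its main end 2 nt before the annotated site, so it counts as elsewhere, and that end held 99.4% and 99.9% in wild type and 83.2% and 54.3% in hyl1.

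In 3 further precursors 1 hyl1 library departed and the other did not. MIR167a had 100% of its ends at the base in wild type 1, wild type 2 and hyl1 2. In hyl1 1 that share was 2.38% of 84 counts, and 97.6% lay 8 nt upstream, inside the 3′ strand. MIR169a, whose miRNA represses NF-YA factors, had 87.6%, 91.4% and 96.6% at the base in wild type 1, wild type 2 and hyl1 1, and 65.1% in hyl1 2, where 27.0% lay 27 nt upstream. MIR171b varied within both genotypes. Its base-proximal share was 100% and 33.8% in wild type and 97.9% and 0% in hyl1, and hyl1 2 had 99.0% of its 191 counts 30 nt downstream of the site. That downstream end also held 12.1% in wild type 2 and 47.2% in se 2. The MIR167a tag of hyl1 1 begins within the duplex strand.
MIR167a hyl1 1, chromosome 3, 8108185: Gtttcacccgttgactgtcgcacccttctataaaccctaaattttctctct

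**Figure D3:**
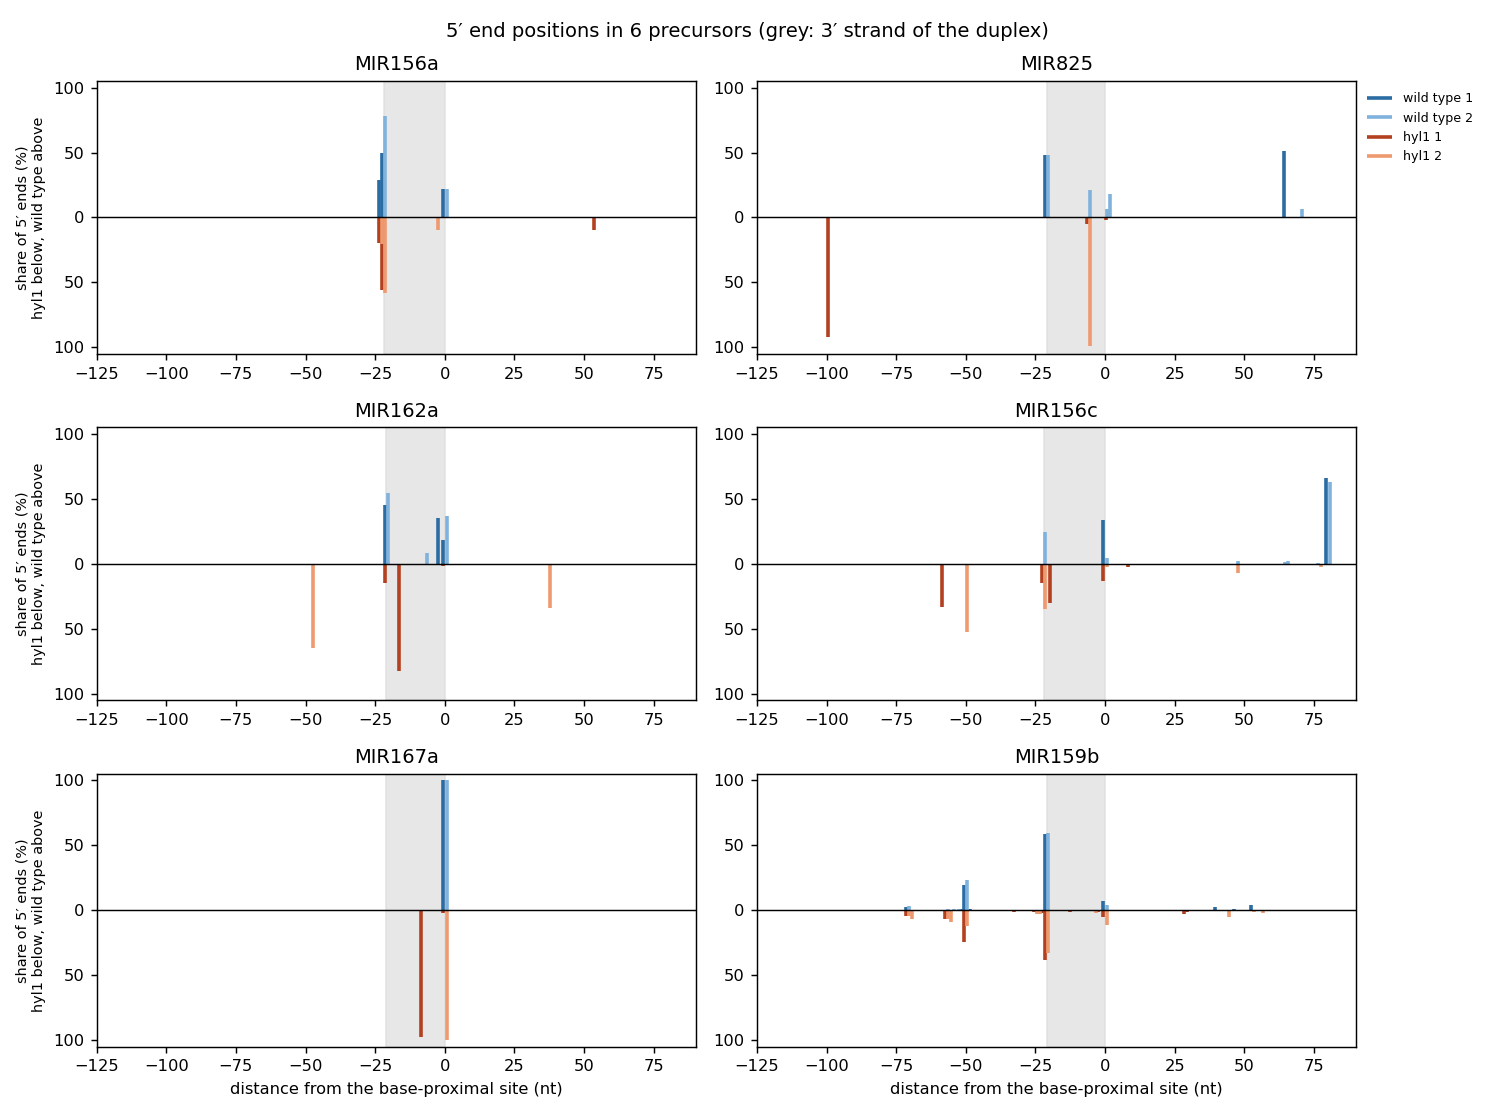
Share in percent of the 5′ ends of 6 precursors by distance in nt from the base-proximal site, with wild-type libraries drawn upward, hyl1 libraries downward and the duplex strand of the 3′ arm in grey. The main ends of hyl1 1 and hyl1 2 lie at different places in MIR825 (99 and 6 nt upstream) and MIR162a (16 and 48 nt upstream), and ends beyond the drawn range, such as those of MIR156a upstream of its hairpin, are not shown.

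New positions that both hyl1 libraries shared were few. Of the 44 positions with at least 3 counts in each hyl1 library, 6 had no count in wild type (13.6%), and of the 51 such positions in wild type, 4 had none in hyl1 (7.84%). The 6 positions lay in MIR159b (54 and 24 nt upstream of the base-proximal site), MIR398b (chromosome 5, 4690972, upstream of the hairpin, and 12 nt upstream of the base-proximal site) and MIR779 (532 and 351 nt upstream). The 4 wild-type positions lay in MIR159b (53 nt upstream), MIR169a (48 nt downstream), MIR399a (34 nt downstream) and MIR825 (the loop-proximal site). The MIR159b ends at 54 and 53 nt are neighbours. The first had the minimum of 3 counts in each hyl1 library, and the second had 9 and 461 counts in wild type. Of the 6 hyl1 positions, 5 had counts in both fiery1 libraries, which are far deeper, and the exception was MIR779 at 351 nt. In position usage, a test of each position against the rest of its precursor, edgeR called 0 of 341 positions (0%). The smallest adjusted p was 0.102, for MIR779 at 532 nt, and 59 positions had an unadjusted p under 0.05. The count filter used all 8 libraries, and with only the 4 libraries edgeR called 0 of 72 positions.

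MIR779 had the largest of these new ends. The end 532 nt upstream, outside the annotated hairpin, held 0% in both wild-type libraries and 55.8% and 30.9% in hyl1 1 and 2. The end 351 nt upstream held 0% in wild type and 0.708% and 26.2% in hyl1. Wild type 2 had 6.47% of its ends, 293 counts, 1 nt after the first of these, at 531 nt, so that region was not empty in wild type. Loop-proximal ends of MIR779 were 69.1% and 72.8% in wild type and 20.3% and 41.9% in hyl1 (limma, adjusted p = 0.0750), and ends elsewhere were 30.9% and 22.2% against 79.7% and 58.1% (adjusted p = 0.0528). The first 13 bases of both upstream tags were the same in 12. The next base differs, so the compared length ends where the match ends, and no background was computed for it. Both tags are shown beside the smaller hyl1 end of MIR398b, at 0.749% and 2.97% in hyl1.
MIR779 at 532 nt, chromosome 2, 9560355: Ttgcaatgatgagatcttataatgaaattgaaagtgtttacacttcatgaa
MIR779 at 351 nt, chromosome 2, 9560536: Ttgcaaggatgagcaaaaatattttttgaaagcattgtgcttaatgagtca
MIR398b at 12 nt, chromosome 5, 4691116: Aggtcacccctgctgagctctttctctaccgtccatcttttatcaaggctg

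Many positions were seen in 1 library of a genotype and not in the other. Of 115 positions with at least 3 counts in hyl1 1, 62 had no count in hyl1 2 (53.9%, with 17.8% of the counts), and of 83 in hyl1 2, 34 had none in hyl1 1 (41.0%, with 18.2% of the counts). In wild type the values were 8 of 68 (11.8%, 3.59% of the counts) for wild type 1 and 59 of 125 (47.2%, 7.88% of the counts) for the deeper wild type 2. Against both libraries of the other genotype, 40 of the 115 positions of hyl1 1 (34.8%) and 30 of the 83 of hyl1 2 (36.1%) had no count there, and so had 10 of 68 (14.7%) in wild type 1 and 45 of 125 (36.0%) in wild type 2. The share of positions in hyl1 was thus close to that of wild type 2. By counts, such positions made up 3.31% of wild type 1, 6.39% of wild type 2, 9.71% of hyl1 1 and 14.7% of hyl1 2. Over all precursors and thinned to 25753 counts, libraries held an expected 127 and 164.2 distinct positions in wild type and 213 and 180 in hyl1. The means were 145.6 ± 26.3 (SD, n = 2) and 196.6 ± 23.5, without overlap (exact two-sided permutation p = 0.33, the smallest possible).

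The share of ends that 2 libraries placed at the same positions was lower between the hyl1 replicates than between the wild-type replicates in 14 of 20 precursors. Its median was 79.9% between wild type 1 and 2, 67.1% between hyl1 1 and 2, and 66.2% between libraries of different genotypes. Under 50% were 3 precursors in wild type and 7 in hyl1. The lowest in hyl1 were MIR171b at 0%, MIR162a at 1.01%, MIR167a at 2.38% and MIR825 at 4.69%, against 33.8%, 64.2%, 100% and 48.3% in wild type. Hyl1 counts of these 4 precursors were between 64 and 388 per library, and the part of low template number in this spread was not tested. Hyl1 1 also has a later sample number and another source label than hyl1 2, while the wild-type replicates do not differ so. Genotype and this difference cannot be told apart in how well replicates agree.

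**Figure D4:**
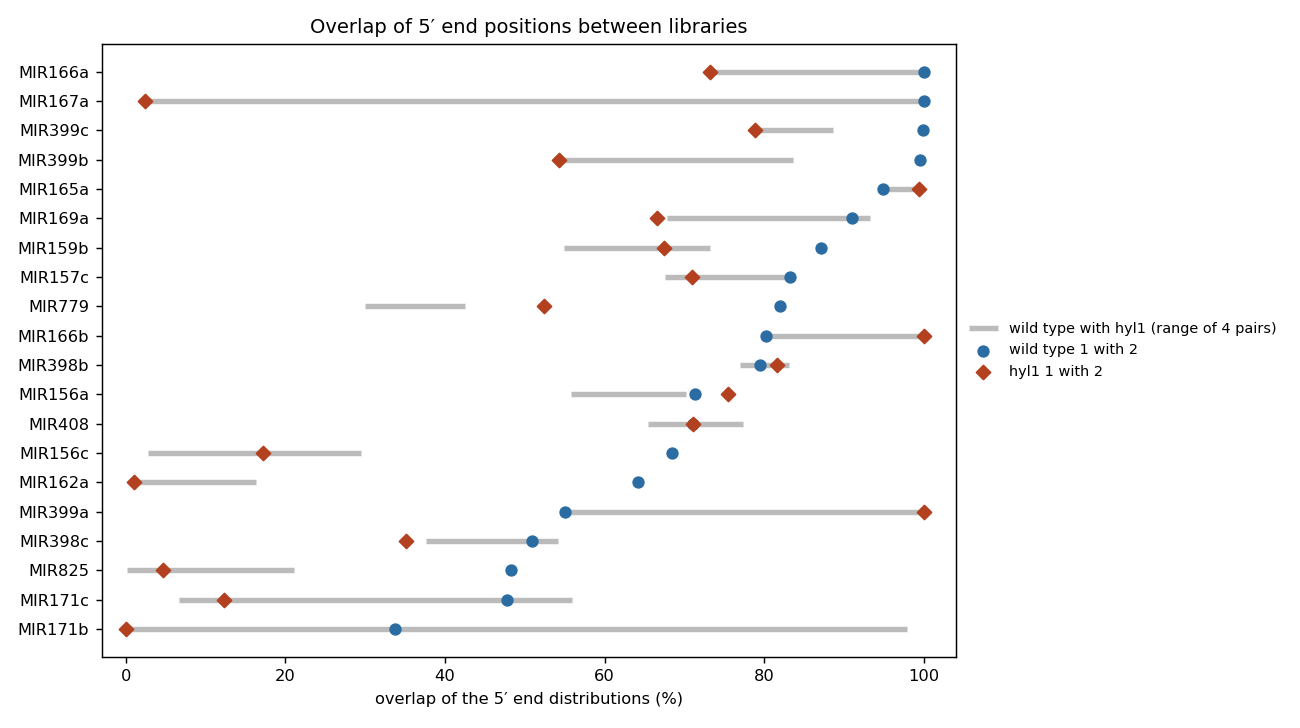
Overlap in percent of the 5′ end distributions of each precursor between the 2 wild-type libraries (circles), between the 2 hyl1 libraries (diamonds) and between genotypes (grey lines, range of 4 pairs). Hyl1 diamonds lie left of the wild-type circles in 14 of 20 precursors, with MIR171b, MIR162a, MIR167a and MIR825 under 5%.

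By processing direction, the 7 loop-to-base precursors (families MIR156, MIR157, MIR159, MIR162 and MIR171) had ends elsewhere above wild type in both hyl1 libraries in 5 cases and below in 0, against 11 above and 2 below among all 20, with a median difference of 22.8 points against 17.5. Their loop-proximal share was below wild type in 3 and above in 0, against 6 and 0 of all 20. Their base-proximal share was below in 2 and above in 0, against 6 and 2 of all 20. The medians of these 2 shares were -23.3 and -11.4 points, against 0 and -8.79. Of the 11 base-to-loop precursors, ends elsewhere were above in 4 and below in 2, with a median of 8.68 points. Their base-proximal share was below in 4 and above in 2, with a median of -8.63 points. Among these 11 only MIR408 had loop-proximal counts in the 4 libraries, so that share could not differ in the others. The remaining 2 precursors, MIR779 and MIR825, had ends elsewhere above and loop-proximal ends below, with medians of 50.9 and -44.0 points. No test compared the lists.

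The amount of each precursor, as its share of the library, was not called different by edgeR in any case. EdgeR's quasi-likelihood test called 0 of 74 precursors (0%). The smallest adjusted p was 0.225, and 14 precursors had an unadjusted p under 0.05, while DESeq2 called 19, 7 of them higher in hyl1. Both hyl1 libraries lay above both wild-type libraries in 14 precursors (18.9%) and below in 14 (18.9%). The count filter used all 8 libraries, so some of the 74 had no count in the 4 libraries, where 70 precursors had tags. Those could not differ, which lowers these percentages. With only the 4 libraries, edgeR called 0 of 38 precursors. The shares are relative within a library, so less of 1 precursor and more of the others cannot be told apart. In bulk seedlings, fewer cells of a type and less RNA per cell cannot be told apart either.

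Among the 9 precursors with at least 5% of a library, 4 were lower and 4 were higher in both hyl1 libraries, without a call by edgeR. DESeq2 called the lower MIR159b, MIR165a and MIR779 (DESeq2, adjusted p = 0.00666, 0.00194 and 0.00360) and none of the others among the 9. MIR159b was 30.7% and 27.5% in wild type and 14.7% and 17.6% in hyl1, a log2 fold change of -0.80 with a standard error of 0.39 (edgeR, adjusted p = 0.230). MIR165a was 5.18% and 4.01% against 0.707% and 1.23%, a log2 fold change of -2.12 with a standard error of 0.80 (edgeR, adjusted p = 0.225), which was -1.54 without hyl1 1 and -3.08 without hyl1 2. MIR779 was 5.02% and 3.73% against 1.57% and 1.88%, and MIR169a was 5.13% and 3.33% against 0.723% and 3.27%. MIR156a was 1.56% and 0.547% in wild type and 1.63% and 6.37% in hyl1, MIR157c was 8.30% and 6.77% against 9.68% and 12.2%, and MIR408 was 4.79% and 4.51% against 5.40% and 9.58%. MIR398c, at 2.04% and 5.03% against 10.6% and 7.35%, was the fourth of the higher ones. MIR398b overlapped, at 9.84% and 20.4% in wild type and 26.3% and 16.8% in hyl1.

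The 12 precursors with the smallest p were mostly those with few or no counts in 1 genotype, and none was called by edgeR. DESeq2 called all of them except MIR167c, MIR862 and MIR156b, for which it gave no adjusted p. MIR160a, whose miRNA represses auxin response factors, had 7 and 1 counts in wild type and 289 and 152 in hyl1, with both hyl1 libraries higher. Its fitted log2 fold change went from 6.73 to 2.88 over tags of all lengths. MIR157a had 0 counts in both wild-type libraries and 9 and 189 in hyl1, a mean share at least 97.0-fold higher against a floor of 3 counts per library. Hyl1 2 carried that bound, with 0.734% of its counts against 0.0200% in hyl1 1, and the fitted log2 fold change went from 13.29 to 8.53 without it. MIR156d had 243 and 134 counts in wild type and 0 in both hyl1 libraries, a mean share at least 29.5-fold lower. MIR864 had 2 and 304 counts against 0 in both, and its bound of at least 13.9-fold lower rests on wild type 2 alone, without which the fitted log2 fold change went from -11.58 to -6.05. In MIR164b (8 and 7 against 334 and 2 counts), MIR393a (1 and 4 against 493 and 2) and MIR169l/MIR169k (3 and 949 against 3 and 1) a single library carried the difference. The same held for MIR167c, MIR862 and MIR156b, with 36, 15 and 17 counts in 1 hyl1 library and at most 1 in any other, and for MIR169n/MIR169m, with 219 counts in wild type 2 and 0 in the others. MIR165a is the remaining member.

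**Figure D5:**
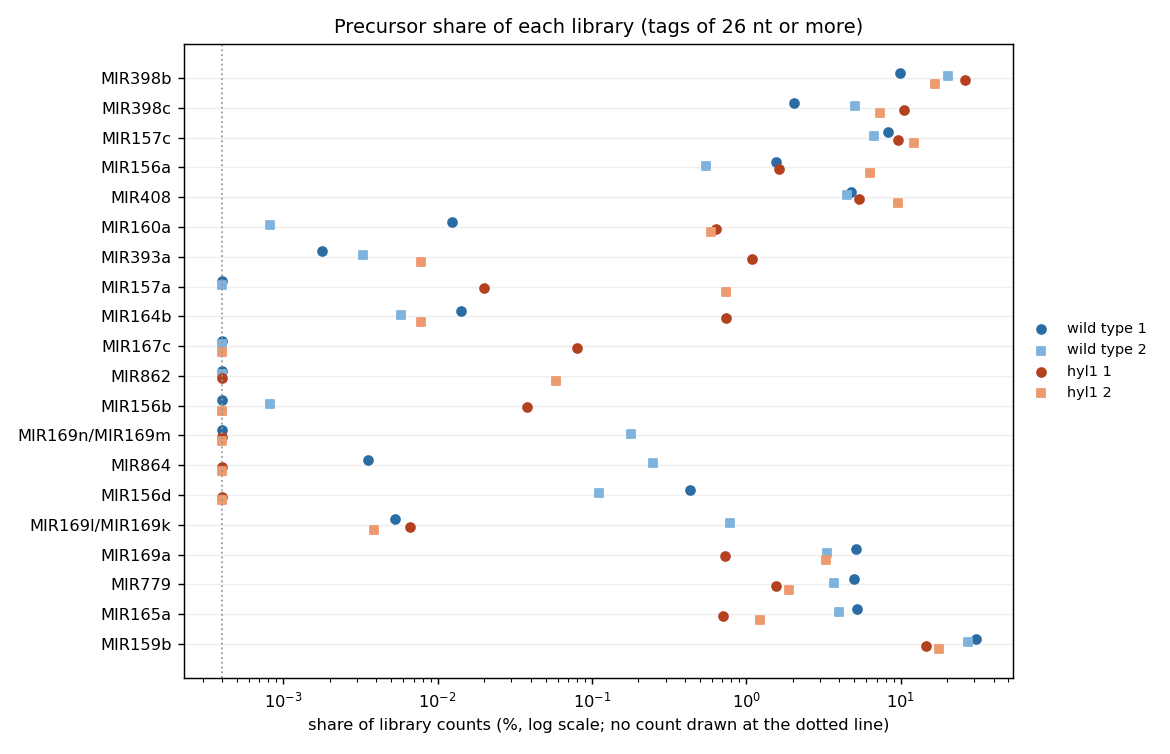
Share in percent of library counts on a log axis for the precursors named by size or smallest p, with 1 point per library and libraries without a count drawn at the dotted line. MIR159b, MIR165a, MIR779 and MIR169a lie lower in both hyl1 libraries, and MIR160a, at 0.641% and 0.590% against 0.0124% and 0.000824%, lies higher. For MIR169a, hyl1 2 at 3.27% is only just below wild type 2 at 3.33%.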

How the data were processed

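Tags of SPARE libraries from 10-day-old seedlings were deposited by the authors as counts of identical sequences with precursor, position and length, without normalization as judged from whole numbers and unequal totals. Cutadapt and TAIR10 are named, without versions, per the submitters' processing notes; the aligner was not given in the sources used here. Rows with a blank count, 13 in all and all in fiery1 libraries, were left out.

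File entries on the same locus were joined (111 entries into 108 precursors) and tags were placed by exact match on TAIR10.1, where 99.6% of counts matched. Sites came from the strand positions of the RefSeq annotation, with a 3′ arm strand for 85 precursors. Where the name of a miRNA gave no arm, as for miR825 and miR779.2, RNAfold pairing assigned the arm, and the strand was still counted as annotated. Tags of 26 nt or more were used. Depth is given per library in the results.

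Precursor counts were tested with edgeR 4.0.16 (quasi-likelihood, TMM, filterByExpr with a minimum count of 10) and position usage with its diffSpliceDGE, in R 4.3.3. Shares were tested with limma 3.58.1 on log2 odds (offset 0.5) where all 4 libraries had 20 or more counts of a precursor; fiery1 or se libraries under 20 counts were missing for that precursor. All 8 libraries entered these fits, with a term per genotype and Benjamini-Hochberg adjustment at 0.05. Library measures used exact permutation over 6 arrangements, and distinct positions exact hypergeometric rarefaction. At least-fold values compare mean shares with a floor of 3 counts per library. Scripts were tested on simulated data. Alternatives included DESeq2 1.42.0, other site windows, minimum counts, all tags, replicate blocks and leaving out libraries. For 1 of them RNAfold 2.7.2, used above to assign arms, also predicted 3′ strands that the annotation lacks.

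Precursors were named if they held at least 5% of a library, were among the 12 smallest p-values of abundance, were among the 8 largest share differences in a direction without overlap, passed a threshold, or held a position seen in 1 genotype only. MIR166b, MIR167a, MIR169a, MIR171b, MIR156c and MIR399b were described in the shares after their values were seen. The precursors and lists were chosen with earlier results of these data known.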

Additional observations from a re-analysis of the deposited data

How the results depend on the processing

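With the replicate block the counts of calls were as without it: edgeR called 0 precursors and 0 positions, limma called 1 base-proximal, 1 loop-proximal and 2 elsewhere shares, and the loop-proximal and elsewhere library differences kept their sizes (-16.02 and 17.2 points, exact permutation p = 0.5; -1.16 points, p = 1, at the base). Replicate numbers did not pair the libraries (r = -0.139 between deviations of wild type and hyl1 over 74 precursors), and with the numbers crossed, a choice made after seeing the data, limma called 2 loop-proximal shares in place of 1. DESeq2 called 19 precursors in place of 0, and over all tags 2 positions were called in place of 0. The base-proximal calls were 2 with only the 4 libraries, the loop-proximal calls 0 from 10 counts, and the elsewhere calls 4 with an offset of 1, 1 from 10 counts, 1 at the exact position and 4 within 3 nt. Leaving out 1 library gave 0 to 2 called precursors, 1 to 2 base-proximal, 1 to 4 loop-proximal and 0 to 5 elsewhere calls; the 0 is without wild type 1, and without wild type 2 the 1 call is MIR399a, lower in hyl1. The base-proximal library difference was -11.2 points without MIR159b and -9.76 as a mean over precursors (exact permutation p = 0.33 each), and -3.79 to 1.47 with 1 library left out, so its direction was not stable. The loop-proximal difference was -12.9 over all tags, -7.55 without MIR159b and -11.3 as a mean, and -18.1 to -13.9 with 1 library left out. The elsewhere difference was 14.7 at the exact position, 13.4 within 3 nt, 12.5 over all tags (p = 0.667), 18.8 without MIR159b, 21.1 as a mean, and 15.9 to 18.4 with 1 library left out. The difference in distinct positions was 32.4 to 69.6. Positions seen only in hyl1 were 3 at a minimum of 10 counts, 2 if absent also within 1 nt, and 8 to 40 with 1 library left out, and those only in wild type were 2, 2 and 6 to 45; fewer libraries to match make these counts larger by construction. Log2 fold changes that changed sign were those of MIR156b (-1.64 with a term for later sample numbers, -3.77 to 8.42 with 1 library left out, lowest without hyl1 1) and, with 1 library left out, MIR157c (-0.018 to 1.06, lowest without hyl1 2), MIR169a (-2.91 to 0.0053, highest without hyl1 1), MIR398b (-0.16 to 1.07, lowest without wild type 1) and MIR408 (-0.18 to 1.39, lowest without hyl1 2); none was called. Unless stated, the cause was not tested.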
